A study of Mus musculus with 29 samples.

Results

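CD150hi HSC and CD150lo HSC of wild-type (WT) mice were compared within the same animals, by RNA-Seq, across all genes. The comparison rests on 10 of the 29 libraries of the series: CD150hi HSC and CD150lo HSC from each of 5 mice, chosen by the genotype and cell type that the sample labels give and paired by the mouse code that the labels repeat. The study deleted a stretch of chromosome band 5A3 in mice and sequenced RNA from 3 sorted bone marrow populations of heterozygous mutants and WT littermates. The deletion is germ-line and spans the interval between Fbxl13 and Srpk2. The WT mice carried no engineered allele, received no treatment, were of strain C57BL/6J and were between 12.42 and 13.28 weeks old. All cells were c-kit+, lineage-, Sca-1+, CD41- and CD48-, and the CD150 signal then divided them into CD150hi HSC, CD150lo HSC and CD150neg multipotent progenitors (MPP; the labels call these HSC too). The CD150neg MPP of the same WT mice (5 libraries) share the estimate of the spread, and the 5A3+/del mice, 5 other C57BL/6J animals between 12.42 and 13.85 weeks old that lack 1 copy of the interval, serve below as separate mice for the same contrast.

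Hematopoietic stem cells (HSC) renew themselves and give rise to all blood lineages. CD150 is a receptor of the SLAM family, encoded by Slamf1, and among immunophenotypic HSC its level separates cells of high self-renewal and myeloid and platelet bias (CD150hi) from cells with a more balanced or lymphoid output (CD150lo). MPP have lost long-term self-renewal and are closer to the committed progenitors.

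The deposited values are FPKM, fragments scaled to exon length and to library size. Between 25101082 and 38797889 fragments per library stood behind them in the 10 libraries. The number of genes above 0 was 17504 to 20488 in CD150hi HSC and 19427 to 21133 in CD150lo HSC, so that the 2 ranges overlapped, and mitochondrial rRNA took 23.7% to 30.1% and 26.1% to 31.9% of fragments. Of 30025 genes, 13325 reached an FPKM of 1 in at least 5 of the 10 libraries and were tested. A gene below 1 in all libraries of 1 population passes only if all 5 of the other reach 1. Its lack of overlap is then fixed by the filter. Levels below are normalized FPKM, the quantile normalized values transformed back from log2(FPKM + 1). Differences are given on the log2(normalized FPKM + 1) scale as CD150hi minus CD150lo with their standard error (a scale on which changes of weakly expressed genes come out too small). A gene is called when limma, with the mouse as a block, gave a Benjamini-Hochberg adjusted p-value under 0.05. Bulk RNA cannot tell fewer cells that express a gene from less RNA per cell.

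The sort was visible in the RNA. Slamf1 (ENSMUSG00000015316, chromosome 1, 173697258 to 173731315, mm9) had a normalized FPKM of 15.0, 15.1, 14.5, 12.6 and 14.8 in CD150hi HSC of mice 1 to 5, and of 2.10, 1.57, 0.887, 2.395 and 0.594 in their CD150lo HSC. The populations did not overlap, which the sort on its protein sets and which is no finding. Kit and Ly6a, which encode the c-kit and Sca-1 proteins required of every sorted cell, stood at 154 ± 32.2 (SD, n = 5) against 140 ± 22.6 (n = 5) and at 115 ± 19.2 against 136 ± 21.3 normalized FPKM, with overlapping ranges (limma adjusted p = 0.661 and 0.509). Procr, which encodes the endothelial protein C receptor of HSC, was at 62.8 ± 23.1 and 54.7 ± 7.44 (adjusted p = 0.725). Itga2b, which encodes CD41, was at 2.53 ± 0.628 and 1.80 ± 0.651 (adjusted p = 0.314).

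The 2 populations differed in 519 genes, 3.89% of those tested (limma, adjusted p under 0.05). Of these, 280 (2.10% of genes tested) were higher in CD150hi HSC and 239 (1.79%) were higher in CD150lo HSC. Without the adjustment, 2170 genes had a p-value under 0.05. The median size of a called difference was 0.86 among genes higher in CD150hi HSC and 0.92 among genes higher in CD150lo HSC, and 104 and 93 of them differed by at least 1 on the log2 scale. All 5 CD150hi libraries lay apart from all 5 CD150lo libraries for 191 of the 280 and for 162 of the 239. Calling by p-value favors such genes, and their share among all tested genes is not given here. The number of calls depended on the number of mice. It was 165 and 155 without mouse 1, 179 and 163 without mouse 2, 158 and 134 without mouse 3, 133 and 118 without mouse 4, and 110 and 99 without mouse 5.

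**Figure D1:**
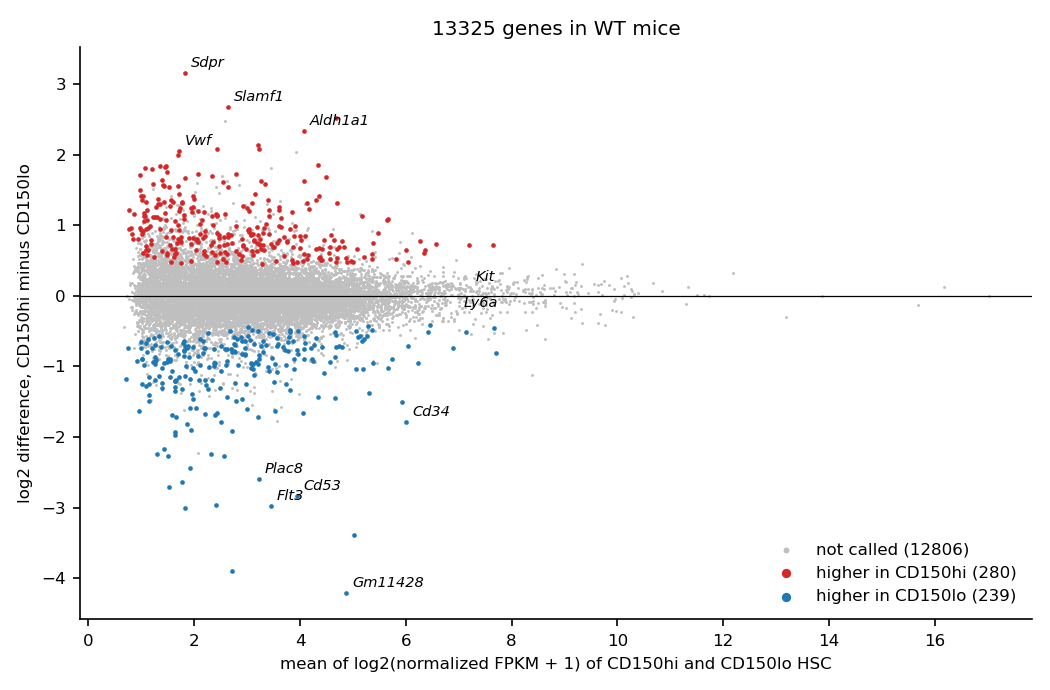
Each point is 1 of the 13325 genes tested in WT mice, with the mean log2 level of both populations on the x axis and the log2 difference, CD150hi minus CD150lo, on the y axis. Red points mark the 280 genes called higher in CD150hi HSC, blue points the 239 called higher in CD150lo HSC and gray points the rest; Gm11428 and Sdpr lie at the lower and upper ends, and Kit and Ly6a lie near 0.

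Sdpr had the smallest p-value among genes higher in CD150hi HSC. The gene, which encodes the caveola protein cavin-2, lies on chromosome 1 (51345970 to 51359803, plus strand, mm9). It had 11.9, 10.5, 11.4, 8.65 and 6.05 normalized FPKM in CD150hi HSC of mice 1 to 5, against 0.103, 0.258, 0.205, 0.0981 and 0.200 in CD150lo HSC. Every CD150hi library exceeded every CD150lo library, in which only 4 to 49 fragments per library came from the gene (difference 3.16 ± 0.16 SE, adjusted p = 1.32e-06).

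Aldh1a1 (chromosome 19, 20676451 to 20717952, plus strand, mm9), an aldehyde dehydrogenase that makes retinoic acid, had 34.6, 29.3, 32.3, 36.3 and 50.6 normalized FPKM in CD150hi HSC and 5.48, 4.91, 7.70, 5.08 and 9.38 in CD150lo HSC. The groups did not overlap, the means were 5.63-fold apart, and mouse 5 was highest in both populations (difference 2.34 ± 0.14, adjusted p = 5.23e-06). It was the only called gene among 54 tested genes for ABC transporters and antioxidant enzymes. Abcg2, the transporter behind the side population of HSC, had 17.8 ± 2.99 and 14.8 ± 2.94 normalized FPKM (adjusted p = 0.4998).

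Vwf (chromosome 6, 125496792 to 125636697, plus strand, mm9) encodes von Willebrand factor, the glycoprotein that tethers platelets to vessel walls. Its level was 6.71, 4.23, 4.94, 6.17 and 6.26 normalized FPKM in CD150hi HSC and 0.918, 0.195, 0.759, 0.617 and 0.570 in CD150lo HSC. The groups did not overlap (difference 2.05 ± 0.13, adjusted p = 5.38e-06).

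The other genes named by p-value in this direction were Tgm2, a protein crosslinking transglutaminase (28.3 ± 3.07 against 8.63 ± 1.93 normalized FPKM, n = 5 each), Gda, a guanine deaminase (15.6 ± 1.20 against 4.51 ± 1.23), and Tenc1, which encodes tensin 2 of focal adhesions (18.3 ± 4.53 against 3.54 ± 1.07). Evc2, a ciliary protein of Hedgehog signaling, Clca1, Smtnl1 and Chst2, a carbohydrate sulfotransferase, had means between 2.30 and 5.47 in CD150hi HSC and below 0.64 in CD150lo HSC. Bmp4, a ligand of the BMP family, had 104 to 347 fragments per library in CD150hi HSC and 0 to 12 in CD150lo HSC. No overlap between the populations and a higher level in CD150hi HSC of all 5 mice were required for naming these genes. The same rule named Sdpr, Aldh1a1 and Vwf above, so their lack of overlap is no finding.

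Among genes higher in CD150lo HSC, Gm11428 was called with the smallest p-value of all. It is named Wfdc17 in RefSeq, belongs to the whey acidic protein family of antiproteinases, and lies on chromosome 11 (83517493 to 83519770, plus strand, mm9). Its level was 137, 110, 115, 130 and 128 normalized FPKM in CD150lo HSC and 4.16, 7.32, 7.30, 3.79 and 7.03 in CD150hi HSC. The means were 20.9-fold apart without overlap (difference -4.21 ± 0.17, adjusted p = 4.94e-07).

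Flt3 (chromosome 5, 148142317 to 148212065, minus strand, mm9) encodes the receptor tyrosine kinase that marks multipotent and lymphoid progenitors. It stood at 27.1, 36.4, 20.3, 33.2 and 31.3 normalized FPKM in CD150lo HSC and at 3.93, 2.13, 2.84, 2.34 and 3.08 in CD150hi HSC. The lowest CD150lo library was well above the highest CD150hi library (difference -2.98 ± 0.17, adjusted p = 4.19e-06).

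Cd34, a sialomucin whose absence from the surface marks long-term HSC in adult mice, was at 105, 109, 97.5, 134 and 135 normalized FPKM in CD150lo HSC and at 31.6, 20.2, 31.6, 34.4 and 53.4 in CD150hi HSC. The groups did not overlap and the means were 3.40-fold apart (difference -1.79 ± 0.16, adjusted p = 0.000133). CD150hi libraries still held 1676 to 4379 fragments of Cd34 each.

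Other genes named by p-value in this direction are mostly known from leukocytes. Plac8, which is expressed in myeloid and lymphoid cells, had 21.9 ± 3.44 normalized FPKM in CD150lo HSC and 2.78 ± 0.503 in CD150hi HSC, and the tetraspanin Cd53 had 39.1 ± 9.62 and 4.87 ± 2.00. Cd52, a small leukocyte surface glycoprotein, had 13.6 ± 2.07 and 0.942 ± 0.597, and the lectin receptor Cd33 had 7.47 ± 2.09 and 0.358 ± 0.410. H2-Ob, the beta chain of the MHC class II modulator DO, had 11.8 ± 2.47 and 1.72 ± 0.828, and the chromatin organizer Satb1 had 8.40 ± 1.37 and 1.95 ± 0.601. Itgb5, an integrin chain, had 4.76 ± 2.00 and 0.721 ± 0.439. Tespa1, a signaling adaptor of thymocytes, BC035044 and Dntt, which encodes terminal deoxynucleotidyl transferase, reached 34, 48 and 4 fragments at most in any CD150hi library, against at least 244, 300 and 270 in every CD150lo library. The rule that named these genes, and Gm11428 and Flt3 above, required no overlap between the populations, so this is no separate finding.

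**Figure D2:**
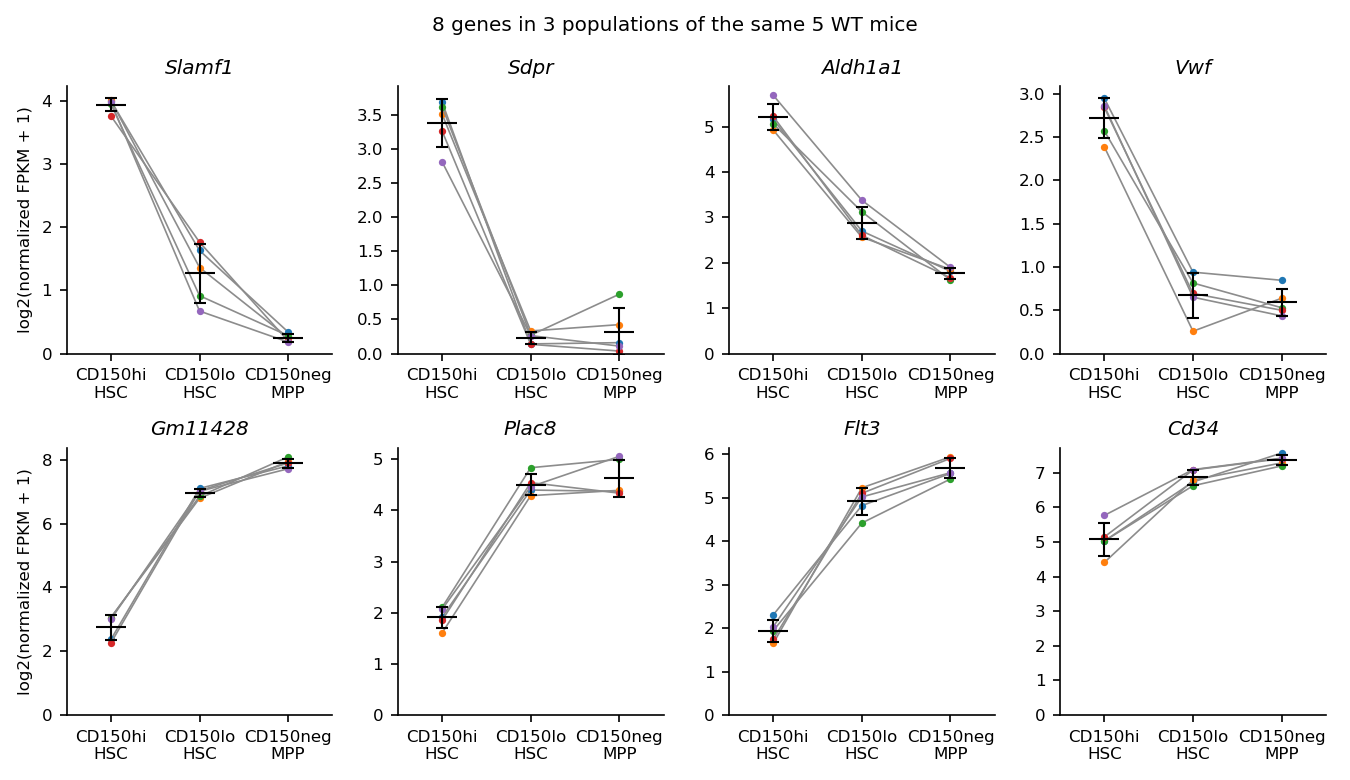
Levels of 8 genes as log2(normalized FPKM + 1) in the 3 sorted populations of the 5 WT mice; colored points joined by a gray line are 1 mouse, and black marks give the mean and SD (n = 5). Slamf1, Sdpr, Aldh1a1 and Vwf were higher in every CD150hi library than in every CD150lo library, and Gm11428, Plac8, Flt3 and Cd34 were lower; CD150neg MPP had the lowest mean of Slamf1 and Aldh1a1 and the highest of Gm11428, Flt3 and Cd34.

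The 250 bases before the annotated start of the 2 genes with the smallest p-values in each direction that have an entry in the RefSeq promoter table (GRCm38.p6, another build than that of the files) are shown because these genes had the smallest p-values. Capitals mark matches, on either strand, to the motifs searched, which were the GATA motifs AGATAA and TGATAA, the AP-1 motif TGANTCA, the ETS motif CCGGAAGT and the RUNX motif TGTGGTTT.
Sdpr (Cavin2), chr1:51288876-51289125, plus strand: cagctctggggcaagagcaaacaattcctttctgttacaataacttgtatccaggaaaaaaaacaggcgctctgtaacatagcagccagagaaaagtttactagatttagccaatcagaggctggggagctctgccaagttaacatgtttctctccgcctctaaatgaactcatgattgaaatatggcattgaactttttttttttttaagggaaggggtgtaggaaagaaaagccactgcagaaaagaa
Aldh1a1, chr19:20492333-20492582, plus strand: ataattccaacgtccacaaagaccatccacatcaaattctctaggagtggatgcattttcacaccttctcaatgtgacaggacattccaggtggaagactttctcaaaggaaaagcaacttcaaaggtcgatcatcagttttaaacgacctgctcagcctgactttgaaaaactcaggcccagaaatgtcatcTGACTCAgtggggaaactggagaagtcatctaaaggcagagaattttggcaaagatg
Gm11428 (Wfdc17), chr11:83703806-83704055, plus strand: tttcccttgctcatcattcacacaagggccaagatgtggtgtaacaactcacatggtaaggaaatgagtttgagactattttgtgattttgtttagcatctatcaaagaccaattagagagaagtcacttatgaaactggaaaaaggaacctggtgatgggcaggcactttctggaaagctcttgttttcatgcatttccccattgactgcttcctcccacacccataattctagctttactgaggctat
Plac8, chr5:100572206-100572455, minus strand: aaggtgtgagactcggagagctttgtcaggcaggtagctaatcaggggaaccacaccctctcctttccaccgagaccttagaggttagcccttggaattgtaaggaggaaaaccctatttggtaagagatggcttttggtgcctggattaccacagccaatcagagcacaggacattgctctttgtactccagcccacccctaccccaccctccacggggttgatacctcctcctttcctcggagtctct

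Only the Aldh1a1 stretch held a match, 1 to TGANTCA, a motif that 6.85% of all 27025 promoters and 3.87% of the 9157 promoters of tested genes hold. Promoters were found for 210 of the 280 genes higher in CD150hi HSC and for 163 of the 239 higher in CD150lo HSC. TGANTCA was in 5.71% and 6.75% of these, AGATAA in 8.57% and 7.36% (5.93% of tested genes, 10.2% of all), and TGATAA in 6.19% and 4.29% (3.48% of tested genes, 8.12% of all). CCGGAAGT was in 0.476% and 1.84%, against 6.399% of the promoters of tested genes and 2.92% of all. TGTGGTTT was in 0.952% and 0.613%, against 0.961% and 1.56%. These are shares of windows that hold the letters, and they were not tested.

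Gene lists written by symbol were then read by role. The lists share members: Gfi1b, for example, is in the HSC transcription factor, megakaryocyte and erythroid lists, and Flt3 is in the HSC surface receptor, lymphoid and cytokine receptor lists. Counts are to be read against the 2.10% and 1.79% of all tested genes called in each direction and the median difference of -0.004 over all of them.

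**Figure D3:**
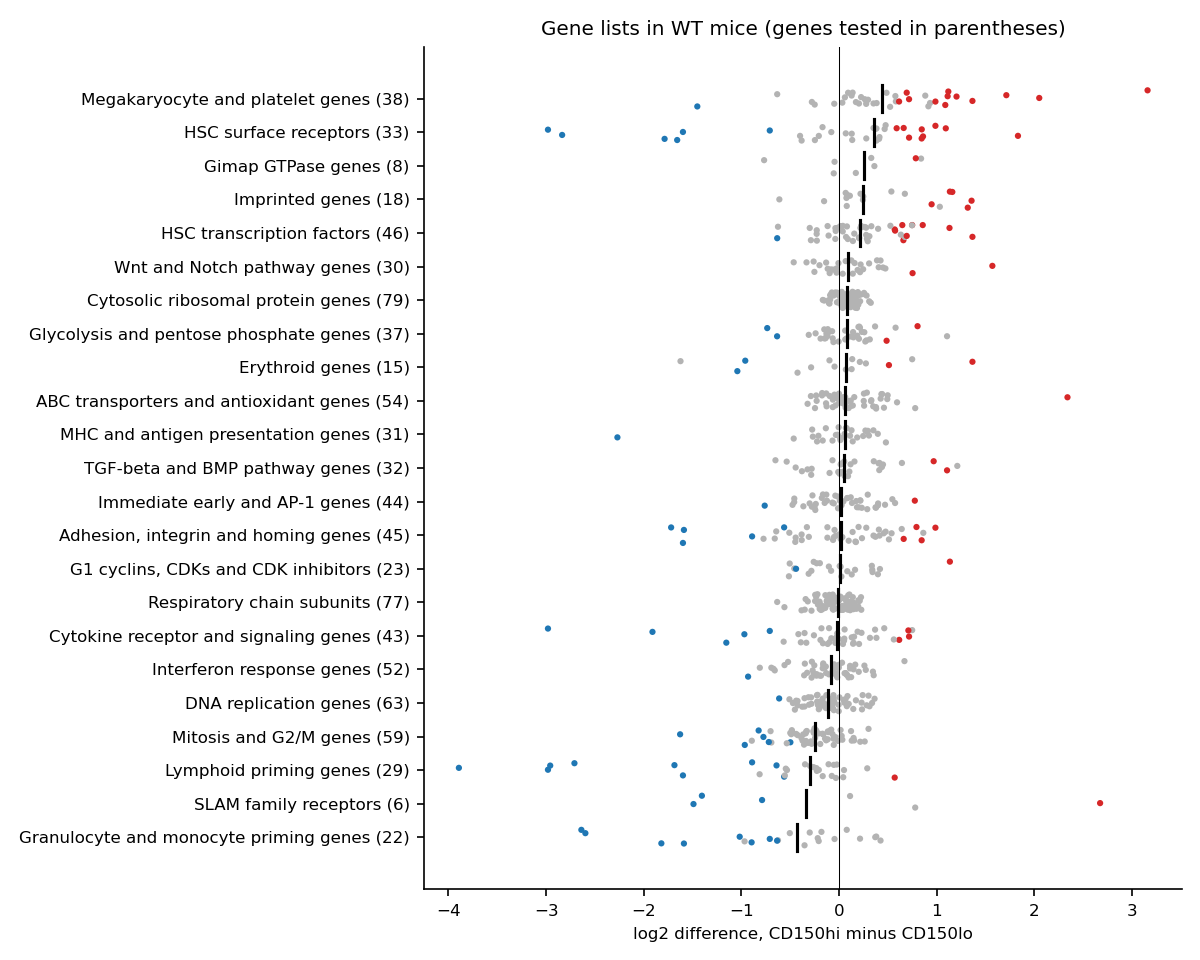
Each point is a tested gene of a list, placed at its log2 difference, CD150hi minus CD150lo, in WT mice; red and blue points are genes called higher in CD150hi or in CD150lo HSC, gray points were not called, and the black bar is the list's median. The megakaryocyte and platelet list has the highest median (0.43 over 38 genes) and the granulocyte and monocyte list the lowest (-0.43 over 22 genes).

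Of 6 tested SLAM family receptors, Slamf1 rose toward CD150hi HSC and 3 fell. Cd244, Cd48 and Ly9, receptors and ligands of leukocyte contacts that lie near Slamf1 on chromosome 1, had differences of -1.49, -1.41 and -0.79 (adjusted p = 0.00129, 0.0138 and 0.0204). Cd48 had 48 to 177 fragments per library in CD150lo HSC and 0 to 31 in CD150hi HSC although both populations were sorted as CD48-. Cd84 (18.4 ± 3.63 and 16.8 ± 1.94 normalized FPKM) and Slamf8 (1.82 ± 1.52 and 0.528 ± 0.477) were not called (adjusted p = 0.749 and 0.375). The count of 3 became 2, 3, 2, 2 and 1 without mice 1 to 5.

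Of 33 HSC surface receptors, 9 were higher in CD150hi HSC and 6 were higher in CD150lo HSC, with a median of 0.35. The higher set held Neo1, a netrin and repulsive guidance molecule receptor (4.15 ± 1.53 against 0.443 ± 0.430 normalized FPKM), Esam, an endothelial adhesion molecule of HSC (22.1 ± 3.59 against 11.8 ± 1.30), and the angiopoietin receptor Tek (11.5 ± 3.69 against 5.84 ± 1.63) with its relative Tie1. It also held Fgd5, Itgb3, Cd38 and Jam2. The lower set included Flt3, Cd53, Cd34, Cd69 and Csf2rb. The count of receptors higher in CD150hi HSC was 5, 6, 4, 6 and 4 without mice 1 to 5.

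Of 46 HSC transcription factors tested, 9 were higher in CD150hi HSC, 1 was higher in CD150lo HSC and 36 were not called (median 0.21). Gfi1b, a repressor required in the megakaryocyte and erythroid lineages, was at 31.1 ± 9.38 against 11.1 ± 0.895 normalized FPKM. Hoxb5, whose product marks long-term HSC, was at 6.45 ± 1.28 against 2.45 ± 0.835, and Hoxb4 was called as well (difference 0.57). Mllt3 (31.2 ± 2.38 against 16.8 ± 1.58) and Mecom, which encodes EVI1 (31.5 ± 2.78 against 19.7 ± 2.72), showed smaller differences with little spread. Gata2, Gata3 and Mycn were also called, with differences between 0.57 and 0.75, and Trps1 was the gene called the other way (-0.63). Hlf and Meis1, which are needed for HSC maintenance, were at 201 ± 30.8 against 236 ± 40.1 and at 73.2 ± 7.19 against 59.9 ± 5.18 and were not called (adjusted p = 0.370 and 0.253). The count of 9 became 5, 7, 6, 4 and 4 without mice 1 to 5.

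Megakaryocyte and platelet genes had the highest share of calls toward CD150hi HSC: 12 of 38, with 1 in the other direction and a median of 0.43. Beside Sdpr and Vwf, the called genes included Clu, which encodes the chaperone clusterin of platelet granules (1 to 7 fragments per library in CD150lo HSC, 170 to 445 in CD150hi HSC), the coagulation factor gene F5 (2.52 ± 0.359 against 0.635 ± 0.196 normalized FPKM), and Mmrn1, the carrier of factor V in platelets (72.5 ± 3.57 against 33.8 ± 3.57). Clu passed the filter on low values only through its CD150hi libraries. Gfi1b, Timp3, Itgb3, the ADP receptor gene P2ry1 and Rab27b were called as well. Plek, the pleckstrin of platelets and leukocytes, was higher in CD150lo HSC (40.5 ± 8.35 against 14.4 ± 4.57). Several genes of the mature platelet were not called. Pf4 was at 21.0 ± 12.5 and 23.8 ± 8.11, Gp1ba at 3.90 ± 0.543 and 3.09 ± 1.16, and Gp9 at 14.4 ± 9.13 and 6.30 ± 2.29 (adjusted p = 0.696, 0.469 and 0.203). The 5 megakaryocyte markers Pf4, Ppbp, Gp9, Gp1ba and Gp5 summed to 31.2 to 55.1 FPKM in CD150hi libraries and 31.4 to 45.6 in CD150lo libraries, and none of them was called by limma. At an unadjusted p under 0.05, 22 of the 38 genes were higher in CD150hi HSC and 2 were higher in CD150lo HSC. Without mice 1 to 5 in turn, the count of 12 became 8, 11, 10, 9 and 9, and the count of 1 remained 1.

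Of 29 lymphoid priming genes tested, 9 were higher in CD150lo HSC and 1, Gata3, was higher in CD150hi HSC, with a median of -0.30. Without mice 1 to 5 in turn, the count of 9 became 6, 7, 7, 6 and 6. The count of 1 became 0 in each of these fits. Ighm, the constant region gene of the immunoglobulin mu chain, had 14.7, 11.8, 41.5, 27.8 and 28.4 normalized FPKM in CD150lo HSC and 0.509, 0.502, 0.438, 0.105 and 1.79 in CD150hi HSC. The groups did not overlap (difference -3.89 ± 0.35, adjusted p = 0.000119). Flt3, Dntt, Cd52 and Satb1 are given above, and Cd44, Ccr9 and Rhoh were called with differences of -0.56, -0.89 and -0.64. Defining markers of mature lymphocytes were low in both populations. In the 10 libraries, Cd3e reached at most 0.336 FPKM and Ms4a1 at most 0.0441. The 5 T cell markers summed to 0.285 to 2.08 FPKM in CD150hi and 0.912 to 2.84 in CD150lo libraries, and the 5 B cell markers, mostly through Cd79b, to 6.43 to 18.1 and 8.06 to 17.7. None of these 10 markers was called, although only 2 passed the filter on low values. Of 4 NK cell markers, Gzma was at 0 in all 10 libraries, and Nkg7, the only one that passed the filter, was higher in CD150lo HSC (19.3 ± 4.29 against 7.81 ± 3.09). Klrb1c, an NK cell receptor gene that was not tested, lay the other way without overlap, at 3.93, 0.8645, 2.46, 3.98 and 2.73 FPKM in CD150hi HSC and 0.1915, 0.368, 0.727, 0.154 and 0.413 in CD150lo HSC. Ncr1 did not exceed 0.222 FPKM.

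Of 22 granulocyte and monocyte priming genes, 8 were higher in CD150lo HSC and 0 were higher in CD150hi HSC by limma (2 at an unadjusted p under 0.05, and 0 by voom on recovered fragments), with a median of -0.43. Plac8 and Cd33 led the list. They were followed by Emb, the membrane glycoprotein embigin (71.3 ± 8.98 against 34.5 ± 2.53 normalized FPKM), Itgam, which encodes CD11b (6.22 ± 2.66 against 1.31 ± 0.430), Mgst1, the chemokine gene Ccl9, Csf2rb and Hk3. Csf2rb had an adjusted p of 0.0151 with the mouse as a block and 0.0865 without it. Mpo, the myeloperoxidase gene of granulocyte precursors, ranged widely and was not called (4.51 ± 8.98 in CD150hi and 5.96 ± 6.24 in CD150lo HSC, adjusted p = 0.579). The count of 8 became 6, 7, 7, 6 and 5 without mice 1 to 5. The granulocyte markers S100a8, S100a9, Ltf, Ngp and Camp summed to 59.7 to 903 FPKM in CD150hi and 12.2 to 1355 in CD150lo libraries. Both extremes on the high side belonged to mouse 1, whose S100a8 level was 478 FPKM in CD150hi and 738 in CD150lo HSC, and no marker of this list was called. Macrophage markers (Cd68, C1qa, C1qb, C1qc and Emr1) summed to 7.40 to 23.5 and 16.8 to 41.2 FPKM, and none of the 4 that were tested was called. Stroma and endothelium markers summed to 5.397 to 12.5 and 8.69 to 11.6 FPKM and mast cell and basophil markers to 0.0223 to 3.76 and 0.629 to 4.67. Only 1 of the 6 and 1 of the 4 passed the filter on low values, and neither was called. Their part in the list's difference was not tested.

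Erythroid genes had no common direction (2 of 15 higher in each population, median 0.07). Gfi1b and Epb4.1, a membrane skeleton gene, were higher in CD150hi HSC. The beta globin genes Hbb-b1 and Hbb-b2, near-identical copies between which fragments cannot be assigned with certainty, were higher in CD150lo HSC, at 14.8 ± 4.57 against 7.36 ± 3.01 and 45.6 ± 14.4 against 22.6 ± 9.36 normalized FPKM (adjusted p = 0.0377 and 0.0361). Without the block their adjusted p was 0.246 and 0.210. Without mouse 1 both remained called, and without any of the other mice 0 genes of the list were called higher in CD150lo HSC. The 6 erythroid markers summed to 14.8 to 44.6 FPKM in CD150hi and 45.04 to 93.7 in CD150lo libraries, most of it beta globin. Their part in other differences was not tested.

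Cytokine receptor and signaling genes divided by receptor. Of 43 tested, 3 were higher in CD150hi HSC (among them Il11ra1 and the signaling inhibitor Socs2) and 5 were higher in CD150lo HSC (Flt3, Il1r1, Csf2rb, Il10ra and Il18r1). Il1r1, the interleukin-1 receptor, had 11.8 ± 3.64 normalized FPKM in CD150lo and 2.37 ± 0.690 in CD150hi HSC (difference -1.91 ± 0.19, adjusted p = 0.000197). The count of 5 became 4, 3, 5, 4 and 2 without mice 1 to 5, and the count of 3 became 1 without any of them. Adhesion and homing genes were divided as well, with 4 of 45 higher in CD150hi HSC (Esam, Itgb3, Itga5 and Jam2) and 5 higher in CD150lo HSC (among them Itgb5, Itgam, Cd44 and Ccr9). These counts became 3 and 3 without mouse 1, 2 and 4 without mouse 2 or mouse 3, and 2 and 3 without mouse 4 or mouse 5.

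Signaling pathways of the HSC niche showed few calls, all toward CD150hi HSC. Of 32 TGF-beta and BMP pathway genes, the coreceptor gene Tgfbr3 (17.4 ± 5.35 against 7.45 ± 1.72 normalized FPKM) and Ltbp4, which binds latent TGF-beta, were higher in CD150hi HSC and 0 were higher in CD150lo HSC by limma (5 at an unadjusted p under 0.05, 1 by voom). Of 30 Wnt and Notch pathway genes, the secreted Wnt antagonist Sfrp1 (3.70 ± 1.75 against 0.518 ± 0.328) and the Wnt receptor gene Ryk (7.52 ± 1.57 against 4.09 ± 1.29) were higher in CD150hi HSC and 0 were higher in CD150lo HSC by limma (1 at an unadjusted p under 0.05, 0 by voom). Bmp4, which was not in the pathway list, is given above. The count of the TGF-beta list became 1 without mouse 2, 3 or 5, and that of the Wnt list became 1 without mouse 4 or 5.

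Imprinted genes, which are expressed from 1 parental copy and include growth regulators of the embryo, were called in 5 of 18 cases, all higher in CD150hi HSC (median 0.25). By limma 0 were higher in CD150lo HSC (1 at an unadjusted p under 0.05, 0 by voom). Meg3, a long non-coding RNA of the Dlk1-Dio3 cluster on chromosome 12, had 1.95, 1.85, 1.86, 1.81 and 1.12 normalized FPKM in CD150hi HSC and 0.275, 0.164, 0.344, 0.151 and 0.125 in CD150lo HSC. No CD150lo library reached 1, so the filter on low values fixed the lack of overlap in advance (difference 1.16 ± 0.10, adjusted p = 0.000119). Rian, another RNA of this cluster, was at 4.42 ± 1.51 against 1.12 ± 0.417. Grb10, an adaptor that restrains growth factor receptors, was at 18.7 ± 2.42 against 9.15 ± 0.352, Igf2 at 2.24 ± 0.779 against 0.251 ± 0.188, and Cdkn1c, which encodes the cell cycle inhibitor p57, at 14.6 ± 2.51 against 6.24 ± 1.82. The count of 5 became 3 without mouse 4 and 4 without mouse 5, and it was 5 without any of the others.

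Genes of mitosis and the G2/M phase differed by little per gene. The difference was below 0 for 49 of 59 (83.1%, against 50.7% of all tested genes), with a median of -0.25, and 6 were called higher in CD150lo HSC. The called genes were Pbk, Kif23, Mad2l1, Kif11, Ccnb2 and Cdca3, with differences from -0.50 to -1.63, and 0 were called higher in CD150hi HSC (0 at an unadjusted p under 0.05 and 0 by voom). Ccnb2, the gene of cyclin B2, had 10.8, 32.2, 17.4, 10.3 and 19.6 normalized FPKM in CD150lo HSC and 1.43, 2.83, 4.49, 6.75 and 14.1 in CD150hi HSC. Mouse 5 was the highest CD150hi library and exceeded the CD150lo libraries of mice 1 and 4 (adjusted p = 0.0453). Mki67, the proliferation antigen Ki-67, was at 18.6 ± 4.99 in CD150lo and 15.5 ± 8.496 in CD150hi HSC (adjusted p = 0.452). The count of 6 became 0, 1, 2, 2 and 1 without mice 1 to 5, and it was 2 without the block. DNA replication genes had 1 call in 63, Fbxo5, which was higher in CD150lo HSC, with 46 of 63 differences below 0 and a median of -0.11. Among 23 G1 cyclins, CDKs and their inhibitors, Cdkn1c was higher in CD150hi HSC and Ccng2 was higher in CD150lo HSC.

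Other lists held few or no calls. Of 77 respiratory chain subunits and 79 cytosolic ribosomal protein genes, 0 were called by limma in either direction. At an unadjusted p under 0.05, 0 and 4 of them were higher in CD150hi HSC and 3 and 0 were higher in CD150lo HSC, and voom called 0 and 1. The medians were -0.01 and 0.08. Of 52 interferon response genes, Oas2 was higher in CD150lo HSC (11.3 ± 1.12 against 5.62 ± 1.70 normalized FPKM), and of 31 genes for MHC and antigen presentation, H2-Ob was the only one called. Of 44 immediate early genes, Maff was higher in CD150hi HSC and Dusp6 was higher in CD150lo HSC. Of 37 tested genes in the glycolysis and pentose phosphate list, Ldha (76.8 ± 7.41 against 54.5 ± 5.21) and Hif3a were higher in CD150hi HSC. Hif3a encodes a transcription factor and not an enzyme of either pathway. Hk3 and Taldo1 were higher in CD150lo HSC. Of 8 Gimap GTPase genes, Gimap4 was called, with overlapping groups (adjusted p = 0.0497). Among the lists of this paragraph and the lists of DNA replication and G1 genes, every count above 0 fell to 0 without at least 1 of the mice, except that of H2-Ob, which remained 1.

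The same contrast was then read in the 5A3+/del mice, which share no animal with the WT comparison. The same test called 196 genes higher in CD150hi HSC (1.47% of genes tested) and 169 higher in CD150lo HSC (1.27%) there. Of the 280 genes higher in WT CD150hi HSC, 273 (97.5%) had the same sign in 5A3+/del mice and 131 were called, which is 46.8% of the WT calls and 66.8% of the 5A3+/del calls in that direction. Of the 239 genes higher in WT CD150lo HSC, 221 (92.5%) had the same sign and 93 were called, 38.9% of the WT calls and 55.0% of the 5A3+/del calls. Over all genes tested, 49.5% had a difference above 0 in 5A3+/del mice. In all, 224 genes were called in both genotypes in the same direction and 0 in opposite directions. The median difference of the WT calls was 0.71 in 5A3+/del against 0.86 in WT mice for genes higher in CD150hi HSC, and -0.61 against -0.92 for genes higher in CD150lo HSC, where the WT values chose the genes.

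**Figure D4:**
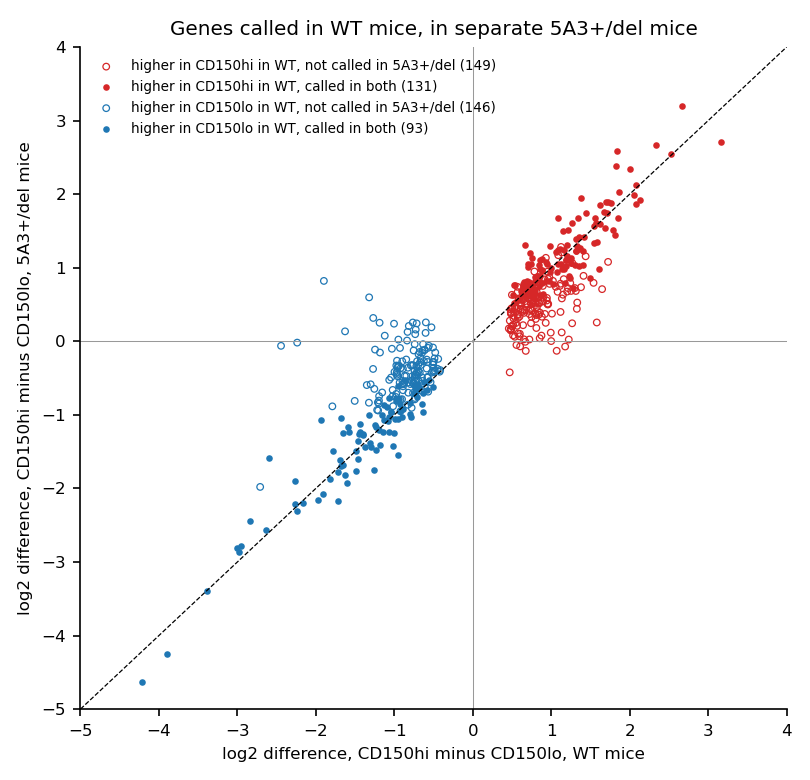
Log2 difference, CD150hi minus CD150lo, of the 519 genes called in WT mice, in WT (x axis) and in separate 5A3+/del mice (y axis), with the dashed line at equal values. Filled points are the 131 red and 93 blue genes called in both genotypes, and open points were called in WT mice only; 494 of the 519 have the same sign in both.

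Vwf, Sdpr and Aldh1a1 differed by 1.98, 2.71 and 2.67 in 5A3+/del mice (adjusted p = 6.49e-05, 6.49e-05 and 0.000780), and Gm11428, Flt3 and Cd34 by -4.63, -2.87 and -1.49 (adjusted p = 0.000150, 2.31e-06 and 0.000286). Of the 24 genes named by p-value, all but Chst2 and Dntt were called in 5A3+/del mice. Chst2 differed by 0.71 there against 1.65 in WT mice (adjusted p = 0.269) and Dntt by -1.98 against -2.71 (adjusted p = 0.0639). Plac8 differed by -1.59 against -2.60 and Evc2 by 0.855 against 1.497, and both were called (adjusted p = 0.00293 and 0.0328). Called in 5A3+/del mice were 14 of 38 megakaryocyte and platelet genes higher in CD150hi HSC, 10 of 29 lymphoid and 9 of 22 granulocyte and monocyte genes higher in CD150lo HSC, and 4 of 18 imprinted genes higher in CD150hi HSC. By limma 0 of 59 mitosis genes were called in 5A3+/del mice in either direction (10 at an unadjusted p under 0.05 were higher in CD150lo HSC and 1 was higher in CD150hi HSC), the median was -0.19, and Ccnb2 differed by 0.13 (adjusted p = 0.950). The difference between the contrasts of the genotypes, tested as an interaction in a fit of all 29 libraries, was called for 0 genes (smallest adjusted p = 0.660), and 630 genes (4.73%) had an unadjusted p under 0.05.

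CD150neg MPP of the same WT mice continued the order of the medians. Over the 280 genes higher in CD150hi HSC, the median level fell from 6.98 normalized FPKM for CD150hi to 3.33 for CD150lo HSC and 2.31 for CD150neg MPP. Over the 239 genes higher in CD150lo HSC it was 3.32, 7.98 and 9.26. Since these contrasts share the CD150lo libraries, the 5A3+/del mice give a view that the choice of genes did not use. In them, CD150neg MPP (4 libraries) were below CD150lo HSC (5 libraries) in mean log2 level for 229 of the 280 genes (81.8%, against 51.0% of all tested genes) and above it for 196 of the 239 (82.0%, against 48.9%). Among the WT values, Slamf1 fell further to 0.190 normalized FPKM in CD150neg MPP, Aldh1a1 to 2.42 and Gata2 to 39.7 from 64.9, while Gm11428 was at 238, Flt3 at 50.7 and Ighm at 45.2. Vwf was at 0.512 in CD150neg MPP and 0.612 in CD150lo HSC and Plac8 at 24.4 and 21.9, so that for these genes the means of CD150lo HSC and CD150neg MPP were close and CD150hi HSC stood apart.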

How the data were processed

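RNA (10 ng) of each sorted population was amplified by the authors with the Ovation system, made into TruSeq v2 libraries with 10 PCR cycles, sequenced as paired-end reads and mapped to mm9. Bowtie version 0.12.2 and HTSeq are named in the submitters' processing notes. The authors deposited FPKM values in 1 table, which covers 30025 genes and 29 libraries. The kits do not mark strand, so overlapping antisense genes cannot be told apart.

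Of the identifiers, 29279 (97.52%) were found in GENCODE for mm9, and FPKM times exon length gave the fragments per library, whole to within 0.1 for 98.8% to 99.1% of low values. Because amplified fragments carried no molecular identifiers and are not separate molecules, a floor of 3 fragments covers counting error only. The 13325 genes that reached an FPKM of 1 in 5 or more of the 10 WT HSC libraries were transformed as log2(FPKM + 1) and quantile normalized over the 29 libraries, by which a gene without fragments takes a small positive value. The 15 WT libraries were fitted with limma (version 3.58.1, R version 4.3.3), mouse being a fixed block (8 residual degrees of freedom), two-sided, with Benjamini-Hochberg adjustment over all genes tested, and the 14 5A3+/del libraries were fitted separately. Tables were made with pandas version 2.3.3 in Python version 3.11.15. The 3 populations of 1 mouse share its code in the labels, so the pairing comes from the design. The deviations of CD150hi and CD150lo libraries of the same mouse correlated at between -0.06 and 0.18. For mouse 3 (0.0445) and mouse 5 (-0.0555), the CD150lo library of another mouse correlated more highly, at 0.147 and 0.0387. For mice 1, 2 and 4 the same mouse gave the highest value. The study's own expression estimate, taken from coverage of a single coding exon per gene, differs from FPKM. Replicates are separate mice.

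The genes and lists were chosen with earlier results of these data known. Named are up to 12 protein-coding genes in each direction with the smallest adjusted p under 0.05, no overlap between populations and 1 sign in all 5 mice, up to 4 called genes with the smallest p per list, 9 HSC genes fixed by name, and other called members of a list beside its count. Some members counted in the lists are not reported here by name. On simulated data for the WT contrast over 13325 genes, with 200 genes changed by 1 on the log2 scale, limma called 132 (66%) and 10 unchanged genes, and it called 0 genes without a change. Alternatives covered the pseudocount, filter, normalization, libraries in the fit, block, variance trend, voom on recovered fragments and leaving out each WT mouse.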

Additional observations from a re-analysis of the deposited data

Results flagged for a closer look

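In 144 groups of 5 WT libraries (72 named genes, CD150hi and CD150lo HSC), 6 held a library far from the other 4 by Dixon's criterion, where chance gives about 1 in 20, or 7.2. The lowest CD150hi library of Slamf1 was mouse 4, with a normalized FPKM of 12.57 against 14.5 to 15.09 in the others. For Cd33, CD150lo HSC of mouse 3 had 3.773, against 7.963 to 8.822. For Cdkn1c, CD150lo HSC of mouse 3 had 3.144, against 6.262 to 7.659. For Rian, CD150hi HSC of mouse 3 had 1.947, against 4.572 to 6.07. For Meg3, CD150hi HSC of mouse 5 had 1.124, against 1.81 to 1.953. Ltbp4 in CD150hi HSC of mouse 2 was the only library on the high side, with 3.003 against 1.252 to 1.583. Mouse 3 accounts for 3 of the 6. It was also the only WT mouse with Xist above 1 FPKM in these populations (303 in CD150hi and 234 in CD150lo HSC). Each mouse was compared with itself, and the calls without mouse 3 are given above.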

How the results depend on the processing

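The number of calls moved more than their direction. None of the 68 called genes named in the text changed sign under any alternative, and 27 of the 68 lost the call in at least 1. The 24 genes named for the smallest p-values stayed on the same side of the threshold in all 374 comparisons available with 16 alternatives. Their choice by p-value in the same data favors this. Called genes higher in CD150hi and in CD150lo HSC numbered 176 and 151 with a minimum FPKM of 5, which tests 8373 genes, and 114 and 97 with the CD150hi and CD150lo libraries alone, which leaves fewer libraries for the spread. Genes called in both genotypes numbered 125 without the filter on low values (30025 genes tested) and 108 with the CD150hi and CD150lo libraries alone. Leaving out each WT mouse in turn gave 110 to 179, 99 to 163 and 138 to 186 for these 3 counts. The 5A3+/del fit was kept unchanged there, so leaving out a 5A3+/del mouse was not tested. Without the replicate block the counts were 237, 182 and 201, and with the block as a random effect 275, 227 and 234. The block decided 11 named genes, of which Pbk, Mad2l1 and Kif11 of the mitosis list had adjusted p-values of 0.209, 0.0968 and 0.571 without it, as did Maff (0.135), Dusp6 (0.197), Ccng2 (0.0651) and Gimap4 (0.188), beside Csf2rb and the beta globin genes given above. voom on recovered fragments called 352 and 300. The 12 megakaryocyte and platelet genes became 6 with a minimum FPKM of 5, and the 5 imprinted genes became 2. With the CD150hi and CD150lo libraries alone, the 6 mitosis genes became 0. Among genes higher in CD150hi HSC, that fit left 3 of the 9 HSC transcription factors and 4 of the 9 HSC surface receptors. It left 0 of the 3 cytokine receptor and signaling genes. The share of calls higher in CD150hi HSC stayed between 48.7% and 56.6%. With 5 mice, depth limits genes such as Dntt or Clu, which are known in 1 population only from a few fragments.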

Other observations

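Several called genes outside the lists are described here, chosen after their values were seen. The chemokine gene Ccl3 had 135, 93.9, 49.1, 114 and 83.3 normalized FPKM in CD150lo HSC and 1.97, 21.7, 5.77, 6.80 and 13.0 in CD150hi HSC (limma difference -3.39 ± 0.40, adjusted p = 0.000671), and it differed by -3.39 in 5A3+/del mice as well. Its neighbor Ccl4 was called in the same direction (50.8 ± 16.2 against 24.5 ± 8.32). Runx3, a transcription factor of lymphocytes, was at 16.2 ± 2.71 in CD150lo and 7.22 ± 1.81 in CD150hi HSC. Tyrobp, Ncf1 and Ctss, genes of phagocytes, were each higher in CD150lo HSC, with differences of -1.72, -1.46 and -1.33.

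In the other direction, Apoe had 32.4 ± 4.49 normalized FPKM in CD150hi HSC against 11.7 ± 3.23 in CD150lo HSC, and CD150neg MPP had 5.61. The growth factor gene Igf1 had 3.68 ± 1.54 and 0.569 ± 0.399. Sox18, Efnb2 and Epas1, genes known from endothelium among other cells, were called toward CD150hi HSC with differences of 1.55, 1.36 and 1.12. Emcn, the only stroma and endothelium marker above that was tested, was not called. It ranged from 3.42 to 10.01 FPKM in CD150hi and from 7.76 to 10.03 in CD150lo libraries. Of 4 tested Hoxb genes, Hoxb4 and Hoxb5 were called toward CD150hi HSC. Of 8 tested Hoxa genes, limma called 0 in either direction, and none had an unadjusted p under 0.05.

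Of the called genes, 267 of 280 and 212 of 239 are protein coding. Airn, an antisense RNA of the imprinted Igf2r locus, was at 5.08 ± 2.14 against 1.54 ± 0.763, but without strand its fragments cannot be separated from those of Igf2r. Genes called in CD150lo HSC for which no CD150hi library had a fragment were Ighv1-77, an immunoglobulin variable segment (12 to 74 fragments per CD150lo library), Sema3d (218 to 667) and Gm8879 (29 to 83). They passed the filter on low values only through their CD150lo libraries, so their lack of overlap is no finding.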
